A study of Mus musculus with 12 samples.

Results

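The 10 genes described here are the core pluripotency transcription factors and the *Dppa* (developmental pluripotency associated) genes: *Pou5f1*, *Sox2*, *Nanog*, *Sall4*, *Utf1*, *Lin28a*, *Dppa2*, *Dppa3*, *Dppa4* and *Dppa5a*. They were taken by symbol from a table of 42450 genes, and all 10 were among the 19410 genes that passed the filter on low counts. The cells were the wild-type male mouse embryonic stem cell (ESC) line E14tg2a.4. They were cultured on gelatin in medium with the cytokine LIF and then in serum-free medium with LIF for 24 h or 72 h. In every group the cells received siRNA at 50 nM, either against *Srrm2*, which encodes a nuclear speckle protein of the spliceosome (Srrm2-KD), or against the firefly luciferase sequence Gl2, which has no target in mouse cells (Gl2-KD). Cells harvested at 72 h had been transfected a second time with the same siRNA, so that time after transfection, time in serum-free medium and number of transfections cannot be told apart. The 4 groups (Gl2-KD at 24 h, Gl2-KD at 72 h, Srrm2-KD at 24 h and Srrm2-KD at 72 h) had 3 libraries of polyA+ RNA each, numbered as experiments 1, 2 and 3. All cells came from 1 line, and the spread between libraries is that between experiments on this line. The comparisons ask whether lowering *Srrm2* for 24 h or 72 h alters the transcripts of the genes that maintain pluripotency.

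POU5F1 (OCT4), SOX2 and NANOG are transcription factors that bind together at enhancers and promoters of ESCs, their own genes included, and keep the cells self-renewing and undifferentiated. SALL4, UTF1 and LIN28A act beside this core, as a zinc finger repressor and activator, a chromatin-bound cofactor and an RNA-binding protein that blocks maturation of let-7 microRNAs. The *Dppa* genes were grouped by their expression in pluripotent cells rather than by a shared sequence: DPPA2 and DPPA4 form a SAP-domain heterodimer that binds promoters of developmental and early embryonic genes, DPPA3 (Stella, PGC7) keeps UHRF1 and with it DNA methylation in check, and DPPA5A is a KH-domain RNA-binding protein.

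Libraries held 73933196 to 153343831 estimated counts. Levels below are CPM (counts scaled to a common library size after TMM normalization), and a gene was called where edgeR's quasi-likelihood test, fitted on all 12 libraries with the experiment as a block, gave an adjusted p below 0.05. *Srrm2* itself lay at 442 to 962 CPM in the 6 Gl2-KD libraries and at 154 to 517 CPM in the 6 Srrm2-KD libraries, and was lower in Srrm2-KD in 6 of 6 pairs of the same experiment and time. Its fitted log2 fold change was -1.22 (SE 0.14) after 24 h and -1.16 (SE 0.14) after 72 h, with edgeR adjusted p of 0.0664 and 0.0991. The 10 pluripotency genes were each detected in all 12 libraries, with at least 779 counts, and together made up 4059 to 6701 CPM. Of the markers of other lineages, *Gata6*, *Sox17*, *Pdgfra* and *Foxa2* (endoderm), *Cdx2*, *Elf5* and *Gata3* (trophoblast), *Mixl1* and *Mesp1* (mesoderm), *Neurog2* (neural) and *Col1a2*, *Col3a1*, *Dcn* and *Lum* (fibroblast) were below 1 CPM in every library. The summed level of the 8 endoderm markers was 19.2 to 67.7 CPM, with *Lama1* the highest, that of the 6 trophoblast markers 67.5 to 162 CPM and that of the 6 neural markers 83.6 to 179 CPM. The 7 fibroblast markers summed to 140.5 to 307 CPM, most of it *Vim* (116 to 297 CPM), an intermediate filament gene that is not limited to fibroblasts, with *Thy1* at 3.58 to 22.9 CPM. In bulk RNA, fewer cells that express a gene and less RNA per cell cannot be told apart.

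*Nanog* lies on the forward strand of chromosome 6 (GRCm38, 122707489 to 122714633), and the sequence before its start is shown because, among the windows of the 10 genes, it alone held the paired OCT4 and SOX2 motif. RefSeq start windows (GRCm38.p6) were matched for 5 of the 10 genes (*Pou5f1*, *Sox2*, *Nanog*, *Utf1* and *Lin28a*), 7 windows in all, and the 250 bases upstream of each start were searched on both strands. The motifs searched were the octamer ATTTGCAT, the octamer without its first base TTTGCAT, the SOX core ACAATG and the composite TTGCATNACAATG, which overlaps the others. In the lines below, capitals mark the matches.
Nanog chr6:122707239-122707488, forward strand: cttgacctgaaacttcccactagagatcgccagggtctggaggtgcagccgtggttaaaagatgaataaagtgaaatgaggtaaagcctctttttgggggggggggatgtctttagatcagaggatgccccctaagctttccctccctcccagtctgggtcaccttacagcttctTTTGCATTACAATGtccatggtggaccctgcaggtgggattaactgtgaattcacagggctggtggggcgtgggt
Sox2 chr3:34649745-34649994, forward strand: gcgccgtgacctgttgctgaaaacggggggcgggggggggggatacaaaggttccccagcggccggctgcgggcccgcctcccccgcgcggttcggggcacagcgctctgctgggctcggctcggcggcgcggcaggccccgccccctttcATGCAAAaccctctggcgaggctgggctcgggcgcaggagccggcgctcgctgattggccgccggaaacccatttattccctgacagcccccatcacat
Pou5f1 chr17:35508557-35508806, forward strand: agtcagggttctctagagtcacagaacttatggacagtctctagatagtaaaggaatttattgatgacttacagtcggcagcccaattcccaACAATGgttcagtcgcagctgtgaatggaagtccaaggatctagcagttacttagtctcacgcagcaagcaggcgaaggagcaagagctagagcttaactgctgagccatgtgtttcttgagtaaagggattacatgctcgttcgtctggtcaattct
The composite was found before *Nanog*, as TTGCATTACAATG with its first base 74 bp upstream of the first of 2 annotated starts and 150 bp upstream of the other. Of 32851 windows of this length in the genome, 4 (0.0122%) held the composite, and these belonged to *Nanog* and the predicted genes *Gm31224* and *Gm34106*. Before *Sox2* the shortened octamer was found on the reverse strand (ATGCAAA, 99 bp upstream), a motif held by 4.12% of all windows. The SOX core, held by 10.7% of all windows, was found 158 bp upstream of the start inside the *Pou5f1* gene and on the reverse strand (CATTGT) 96 bp upstream of *Lin28a*. None of these motifs was in the window of *Utf1* or in the other window of *Pou5f1* (chromosome 17, 35505782 to 35506031), which lies at the start of the gene. A match is a description of the letters, and binding was not measured in these libraries.

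Compared per length, the 10 genes spanned a wide range of transcript levels. As CPM per kb of the longest coding transcript, *Dppa5a* was highest, with a median of 2714 over the 12 libraries (range 1387 to 5178), followed by *Pou5f1* at 1160 (844 to 1436). Every library had *Dppa5a* above *Pou5f1* and *Pou5f1* above *Utf1*. The level per kb of *Utf1* was 328 (224 to 376), that of *Sox2* 209 (174 to 254), that of *Nanog* 165 (139 to 223) and that of *Lin28a* 139.7 (109 to 164). *Utf1* was above *Sox2* and *Sox2* above *Nanog* in 11 of 12 libraries each, and *Nanog* was above *Lin28a* in 12. Below them were *Dppa4* at 124 (94.3 to 176), *Dppa3* at 53.0 (10.1 to 91.3), *Sall4* at 50.2 (33.1 to 67.6) and *Dppa2* at 47.4 (19.8 to 55.7) CPM per kb. The order within the last 3 was not stable between libraries: *Dppa3* was above *Sall4* in 7 of 12. *Lin28a* was above *Dppa4* in 8 of 12, so that these neighbours were also not separated beyond their spread. Over the joined exons of all its transcripts *Pou5f1* was at 703 CPM per kb, still the second of the 10, since its annotated exons are 1.65 times as long as its longest coding transcript.

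**Figure D1:**
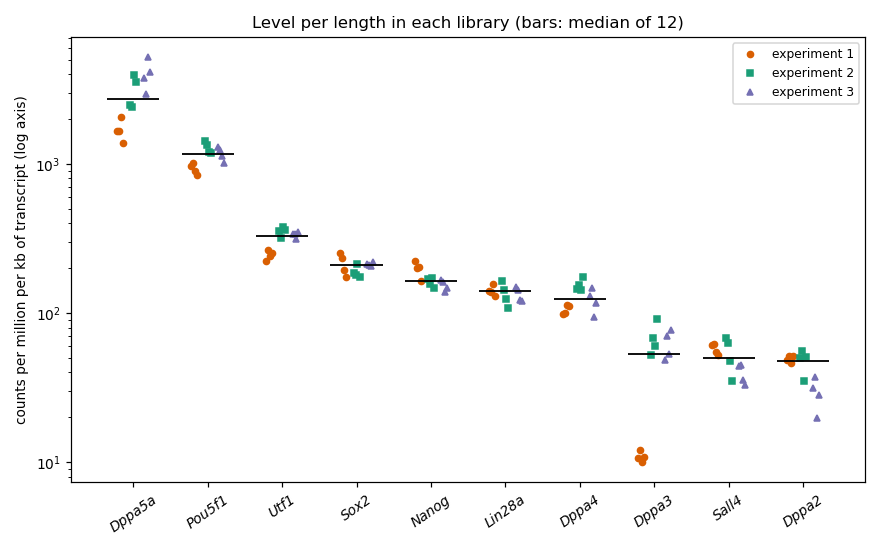
Level per transcript length (CPM per kb, log axis) of the 10 genes in each of the 12 libraries, with colour and shape for the experiment and a bar at the median. *Dppa5a* (median 2714) and *Pou5f1* (1160) lie above the rest in every library, and the 4 libraries of experiment 1 sit far below the other 8 for *Dppa3*.

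After *Srrm2* knockdown the fitted log2 fold changes of *Pou5f1*, *Sox2* and *Nanog* lay between -0.15 and -0.03, and their 95% intervals included 0. The edgeR test at each time did not pass *Srrm2* itself, so that counts of 0 called genes do not show that levels were the same. Of the 10 genes, 0 were called at 24 h and 0 at 72 h, where edgeR called 0.0% of the 19410 genes tested at either time. At an unadjusted p below 0.05, 1 of 10 passed at 24 h (*Dppa3*) beside 2.62% of all genes, and 3 of 10 at 72 h (*Dppa2*, *Dppa3* and *Dppa5a*) beside 12.9%. The median log2 fold change of the 10 was -0.03 at 24 h and -0.11 at 72 h, and that of all genes was 0.01 and -0.02. DESeq2 and limma-voom also called 0 of the 10 at 24 h and at 72 h, where DESeq2 called 0.124% and 2.76% of all genes and limma-voom 0.0103% and 0.0206%. Both passed *Srrm2* itself at 24 h and 72 h (DESeq2 adjusted p = 3.37e-11 and 1.76e-09, limma-voom 0.0277 and 0.0218). Markers of other lineages were not called by edgeR at 24 h or 72 h either. At 72 h the summed level of the 6 trophoblast markers, with *Tfap2c* the highest, was 104.0 to 162 CPM in Gl2-KD and 67.5 to 109 CPM in Srrm2-KD. That of the 8 endoderm markers, with *Lama1* the highest, was 35.9 to 51.8 CPM and 19.2 to 38.9 CPM. The part of these markers in the values of the 10 genes was not tested.

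*Pou5f1* (chromosome 17, 35506018 to 35510772, forward strand), the POU factor without which ESCs turn into trophoblast, had the smallest standard error of the 10 genes. In experiments 1, 2 and 3 it was at 1316, 1956 and 1765 CPM in Gl2-KD and at 1377, 1813 and 1702 CPM in Srrm2-KD at 24 h. At 72 h it was at 1224, 1645 and 1538 CPM in Gl2-KD and at 1149, 1623 and 1379 CPM in Srrm2-KD. The groups overlapped at both times, and experiment 1 gave the lowest value of every group. The log2 fold change of Srrm2-KD over Gl2-KD was -0.03 (SE 0.08) at 24 h and -0.09 (SE 0.08) at 72 h, with adjusted p of 1 and 0.664. The 95% interval at 72 h of the change in level ran from -16.3% to 5.59%.

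*Sox2* (chromosome 3, 34650405 to 34652461, forward strand) encodes the HMG-box partner of OCT4. At 24 h its levels in experiments 1, 2 and 3 were 522, 385 and 439 CPM in Gl2-KD and 479, 371 and 435 CPM in Srrm2-KD. At 72 h they were 401, 439.9 and 424 CPM in Gl2-KD and 357, 357 and 454 CPM in Srrm2-KD. Experiment 3 gave the highest Srrm2-KD value at 72 h and experiments 1 and 2 the lowest, and the groups overlapped. The log2 fold change was -0.07 (SE 0.13) at 24 h and -0.12 (SE 0.13) at 72 h, with a 95% interval at 72 h from -0.40 to 0.15 (adjusted p = 0.722).

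*Nanog*, the homeodomain factor whose level varies between single ESCs, was lower in Srrm2-KD in 5 of 6 pairs. It was at 493, 376 and 369 CPM in Gl2-KD and at 444, 345 and 359 CPM in Srrm2-KD at 24 h in experiments 1, 2 and 3. At 72 h the values were 451, 383 and 306 CPM in Gl2-KD and 362, 324 and 328 CPM in Srrm2-KD. The pair of experiment 3 at 72 h went the other way, and at both times the groups overlapped. Its log2 fold change was -0.10 (SE 0.10) at 24 h and -0.15 (SE 0.10) at 72 h, with a 95% interval at 72 h of the change in level from -22.5% to 4.19% (adjusted p = 0.54).

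**Figure D2:**
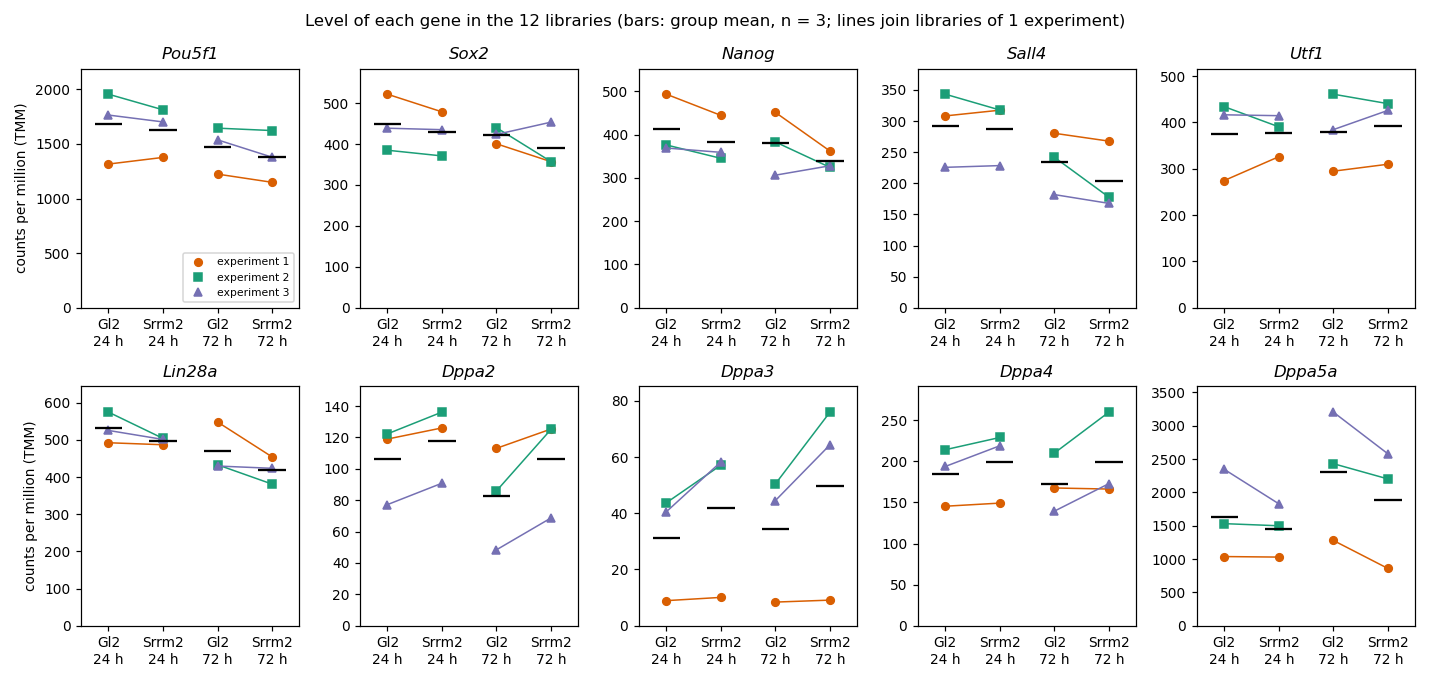
Level of each of the 10 genes (CPM, axis from 0) in the 12 libraries by group, with bars at group means (n = 3) and lines joining Gl2-KD and Srrm2-KD of 1 experiment and time. The lines of *Dppa3* and *Dppa2* slope upward in all 6 pairs, while the experiments differ more than the siRNAs do for *Dppa3*, *Dppa5a* and *Pou5f1*.

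Of the genes that act beside the core, *Sall4* and *Lin28a* had fitted differences below 0 at both times, as the core factors had, and *Utf1* above 0. *Sall4* (chromosome 2, 168748332 to 168767943, reverse strand), the zinc finger factor that recruits the NuRD deacetylase complex, was at 308, 343 and 226 CPM in Gl2-KD and 317, 318 and 228 CPM in Srrm2-KD at 24 h. At 72 h it was at 280.3, 242 and 182 CPM in Gl2-KD and 268, 178 and 168 CPM in Srrm2-KD. The difference at 72 h was carried mainly by experiment 2. The log2 fold changes of *Sall4* were -0.02 (SE 0.12) and -0.20 (SE 0.12), with adjusted p of 1 and 0.535.

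*Utf1* (chromosome 7, 139943789 to 139945112), a chromatin-bound cofactor and target of OCT4 and SOX2, had group means of 375 ± 87.5 and 377 ± 45.8 CPM (SD, n = 3) in Gl2-KD and Srrm2-KD at 24 h and of 380.1 ± 83.2 and 392 ± 71.7 CPM at 72 h. The log2 fold changes were 0.03 (SE 0.10) and 0.05 (SE 0.10). *Lin28a* (chromosome 4, 134003330 to 134018841, reverse strand) was at 492, 575 and 526 CPM in Gl2-KD and 487, 504 and 501 CPM in Srrm2-KD at 24 h, and at 548, 433 and 429.7 CPM in Gl2-KD and 454, 381 and 424 CPM in Srrm2-KD at 72 h. It was lower in Srrm2-KD in 6 of 6 pairs, but by only -0.10 (SE 0.11) and -0.16 (SE 0.11) on the log2 scale (adjusted p = 1 and 0.578), and the groups overlapped at both times.

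Among the *Dppa* genes, *Dppa3* and *Dppa2* were higher and *Dppa5a* lower in Srrm2-KD in 6 of 6 pairs each. *Dppa3* (chromosome 6, 122626410 to 122630272, forward strand), which encodes a maternal factor of oocytes and early embryos, was at 8.90, 43.7 and 40.5 CPM in Gl2-KD and 10.1, 57.1 and 58.3 CPM in Srrm2-KD at 24 h in experiments 1, 2 and 3. At 72 h it was at 8.39, 50.5 and 44.5 CPM in Gl2-KD and 9.09, 76.0 and 64.4 CPM in Srrm2-KD. Across all 3 experiments the groups overlapped at both times. The log2 fold change was 0.36 (SE 0.13, adjusted p = 1) at 24 h and 0.43 (SE 0.13, adjusted p = 0.241) at 72 h, that is 28.4% and 34.4% higher, with 95% intervals of 4.80% to 57.4% and 9.75% to 64.7%. Without experiment 1, *Dppa3* was higher by 0.46 (SE 0.11) at 24 h and 0.56 (SE 0.11) at 72 h on the log2 scale, with adjusted p of 0.595 and 0.127.

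The mean of the effects at 24 h and 72 h was added as a comparison after the pairs had been seen. For *Dppa3* it was 0.39 (SE 0.09) on the log2 scale with an adjusted p of 0.120 in edgeR, which called 0 of the 10 genes and 0.067% of all genes in this comparison. Higher values in 6 of 6 pairs were found for 2 of the 10 genes, beside 7.0% of all genes, and lower values in 6 of 6 pairs for 2 (*Lin28a* and *Dppa5a*), beside 7.26%. Over the settings tried, the adjusted p of *Dppa3* for this mean ran from 0.0080 to 1. DESeq2 called it (adjusted p = 0.0080, with 3.78% of all genes called; limma-voom 0.100, with 0.474% called), as did edgeR without experiment 1 (0.0448, at 0.51, with 0.585% called) and edgeR with each experiment at each time as its own block (0.0209, with 5.79% called).

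*Dppa2* (chromosome 16, 48303908 to 48319723) and *Dppa4* (chromosome 16, 48283733 to 48294237), whose proteins bind DNA as a pair, lie 9670 bp apart with 0 annotated genes between them. *Dppa2* was at 119, 122 and 77.2 CPM in Gl2-KD and 126, 136 and 90.8 CPM in Srrm2-KD at 24 h. At 72 h it was at 113, 85.9 and 48.4 CPM in Gl2-KD and 125, 125 and 68.7 CPM in Srrm2-KD. Experiment 3 had the lowest value of every group, and the ranges of the siRNA groups overlapped. The log2 fold change of *Dppa2* was 0.16 (SE 0.13, adjusted p = 1) at 24 h and 0.39 (SE 0.13, adjusted p = 0.259) at 72 h, and the latter passed in edgeR only with each experiment at each time as its own block (adjusted p = 0.0411, with 3.73% of all genes called). Over all settings tried, the adjusted p of *Dppa2* at 72 h ran from 0.0411 to 1.

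*Dppa4* was at 145, 214 and 194 CPM in Gl2-KD and 149, 229 and 219 CPM in Srrm2-KD at 24 h, and at 168, 210.1 and 139 CPM in Gl2-KD and 166, 260.0 and 173 CPM in Srrm2-KD at 72 h. It was higher in Srrm2-KD in 5 of 6 pairs, and level in experiment 1 at 72 h. The log2 fold changes were 0.11 (SE 0.14) and 0.19 (SE 0.14), with adjusted p of 1 and 0.597.

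*Dppa5a* (chromosome 9, 78367052 to 78368177, reverse strand) went in the opposite direction. It was at 1037, 1531 and 2346 CPM in Gl2-KD and 1029, 1499 and 1829 CPM in Srrm2-KD at 24 h. At 72 h it was at 1279, 2431 and 3205 CPM in Gl2-KD and 859, 2202 and 2579 CPM in Srrm2-KD. Experiment 1 was lowest and experiment 3 highest in each group, and the groups overlapped at both times. The log2 fold change was -0.13 (SE 0.15, adjusted p = 1) at 24 h and -0.33 (SE 0.15, adjusted p = 0.378) at 72 h, a change in level of -20.4% at 72 h with a 95% interval from -36.3% to -0.472%.

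**Figure D3:**
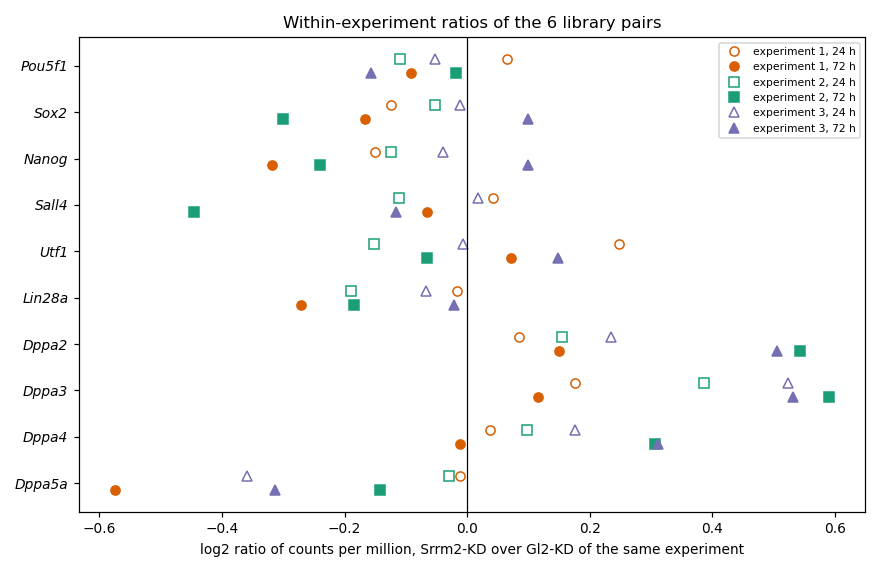
Log2 ratio of Srrm2-KD to Gl2-KD CPM within each experiment, at 24 h (open) and 72 h (filled), for the 10 genes. All 6 ratios are above 0 for *Dppa3* (0.12 to 0.59) and *Dppa2* (0.08 to 0.54) and below 0 for *Lin28a* (-0.27 to -0.02) and *Dppa5a* (-0.57 to -0.01).

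The knockdown effect was not shown to differ between the times. In the test of the difference between the effects at 72 h and 24 h, 0 of the 10 genes and 0.0% of all genes were called by edgeR, and 0 of the 10 had an unadjusted p below 0.05, beside 1.64% of all genes. DESeq2 and limma-voom called 0 of the 10 as well, and 0.0103% and 0.0% of all genes. The differences ran from -0.20 (SE 0.21) for *Dppa5a* to 0.23 (SE 0.18) for *Dppa2* on the log2 scale.

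**Figure D4:**
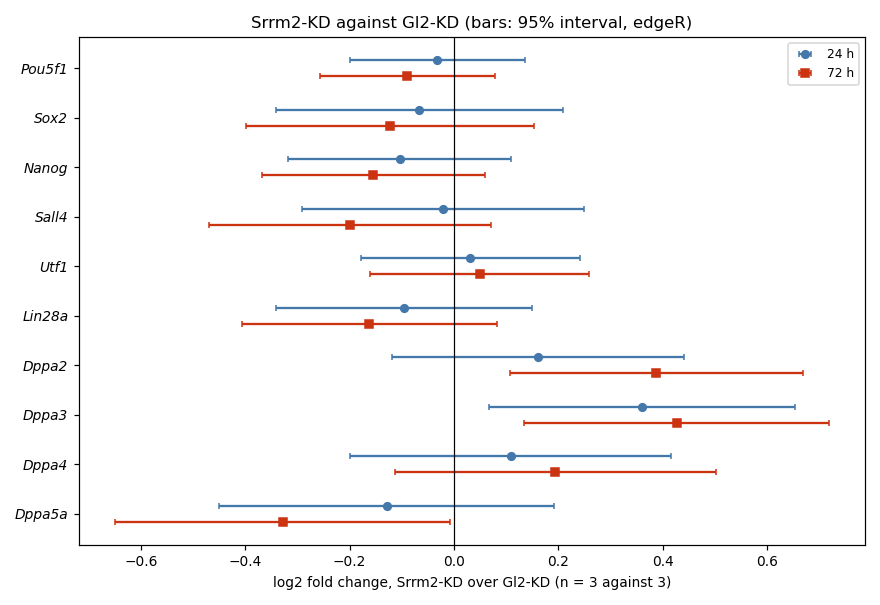
Log2 fold change of Srrm2-KD over Gl2-KD for the 10 genes at 24 h (circles) and 72 h (squares), with 95% intervals of the edgeR fit (n = 3 against 3). Intervals include 0 except for *Dppa3* at both times and for *Dppa2* and *Dppa5a* at 72 h, and no adjusted p was below 0.05.

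Experiments differed more than the siRNAs for several of the genes. *Dppa3* was at 8.39 to 10.1 CPM in the 4 libraries of experiment 1 and at 40.5 to 76.0 CPM in the 8 libraries of experiments 2 and 3, whose mean was 5.97 times as high. A ratio at least as large in that direction was found for 0.634% of all genes. *Dppa5a* (859 to 1279 CPM against 1499 to 3205 CPM), *Utf1* (275 to 326 CPM against 384.5 to 461 CPM) and *Pou5f1* (1149 to 1377 CPM against 1379 to 1956 CPM) were also below all libraries of experiments 2 and 3 in experiment 1, as were 13.7% of all genes. *Nanog* and *Sox2* overlapped between experiments, with mean levels in experiments 2 and 3 of 0.797 and 0.940 times that in experiment 1. *Srrm2* lay higher in experiment 1, at 461 to 962 CPM against 154 to 496 CPM. The part of this in the experiment difference was not tested.

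Over time in culture the core factors and *Sall4* had lower fitted levels at 72 h than at 24 h, and *Dppa5a* a higher one. In Gl2-KD, 0 of the 10 genes were called between 72 h and 24 h, beside 1.45% of all genes, and in Srrm2-KD 0 of the 10, beside 0.551%. At an unadjusted p below 0.05 these were 4 of 10 in Gl2-KD (*Pou5f1*, *Sall4*, *Dppa2* and *Dppa5a*) beside 16.8% of all genes, and 3 of 10 in Srrm2-KD (*Pou5f1*, *Sall4* and *Lin28a*) beside 16.3%. DESeq2 called 0 and 1 of the 10, with 6.69% and 5.43% of all genes, and limma-voom called 0 in both, with 2.48% and 1.33% of all genes. The fitted level of *Sall4* was lower at 72 h, by -0.32 (SE 0.12, adjusted p = 0.210) in Gl2-KD and -0.50 (SE 0.12, adjusted p = 0.101) in Srrm2-KD on the log2 scale. The second is a change in level of -29.3%, with a 95% interval from -41.4% to -14.7%, and it was called by DESeq2 (adjusted p = 0.0130). Its adjusted p ran from 0.0130 to 1.000 over the settings tried.

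*Pou5f1* also had a lower fitted level at 72 h, by -0.19 (SE 0.08, adjusted p = 0.249) in Gl2-KD and -0.24 (SE 0.08, adjusted p = 0.159) in Srrm2-KD. *Lin28a* differed by -0.18 (SE 0.11) and -0.25 (SE 0.11), and in Srrm2-KD its 24 h and 72 h libraries did not overlap, as in 7.48% of all genes. *Nanog* and *Sox2* differed by -0.12 (SE 0.10) and -0.08 (SE 0.13) in Gl2-KD, and *Utf1* by 0.02 (SE 0.10). *Dppa5a* was higher at 72 h in 3 of 3 pairs in Gl2-KD, as were 20.2% of all genes, by 0.47 (SE 0.15, adjusted p = 0.137), and in 2 of 3 in Srrm2-KD, by 0.27 (SE 0.15, adjusted p = 0.402). For *Dppa2* the difference was -0.41 (SE 0.13, adjusted p = 0.138) in Gl2-KD and -0.18 (SE 0.13, adjusted p = 0.524) in Srrm2-KD, and the first passed without experiment 1 (-0.59, adjusted p = 0.0492, with 1.98% of all genes called) or without the Gl2-KD 72 h library of that experiment (0.0409, with 1.34% called). The summed neural markers were at 129.6 to 178 CPM at 24 h and 89.1 to 126 CPM at 72 h in Gl2-KD, and at 108 to 179 CPM and 83.6 to 110.1 CPM in Srrm2-KD. At an unadjusted p below 0.05, 3 of the 5 neural markers tested were lower with either siRNA, beside the 16.8% and 16.3% above. By the same rule 2 of 5 mesoderm markers tested were higher in Gl2-KD and 1 in Srrm2-KD. Of 6 trophoblast markers 2 and 1 were higher, and of 5 fibroblast markers tested 1 and 0, with 0 lower in these 3 lists. Of 8 endoderm markers 1 was lower in Gl2-KD, and 1 was higher and 1 lower in Srrm2-KD. Of the lineage markers, the trophoblast keratin *Krt7* rose with time in Gl2-KD (1.83, SE 0.27, adjusted p = 0.0144) and in Srrm2-KD (1.77, SE 0.26, adjusted p = 0.0333), and the neuronal *Map2* fell in Srrm2-KD (-0.93, SE 0.17, adjusted p = 0.0467), and their part in the values over time was not tested. With a library or an experiment left out, these calls held in 10, 5 and 1 of 15 fits, and with the Srrm2-KD libraries fitted alone both calls in Srrm2-KD were lost (adjusted p = 0.221 for *Krt7* and 0.263 for *Map2*). The comparisons over time and those between siRNAs share libraries, so that their values for 1 gene are not independent.

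**Figure D5:**
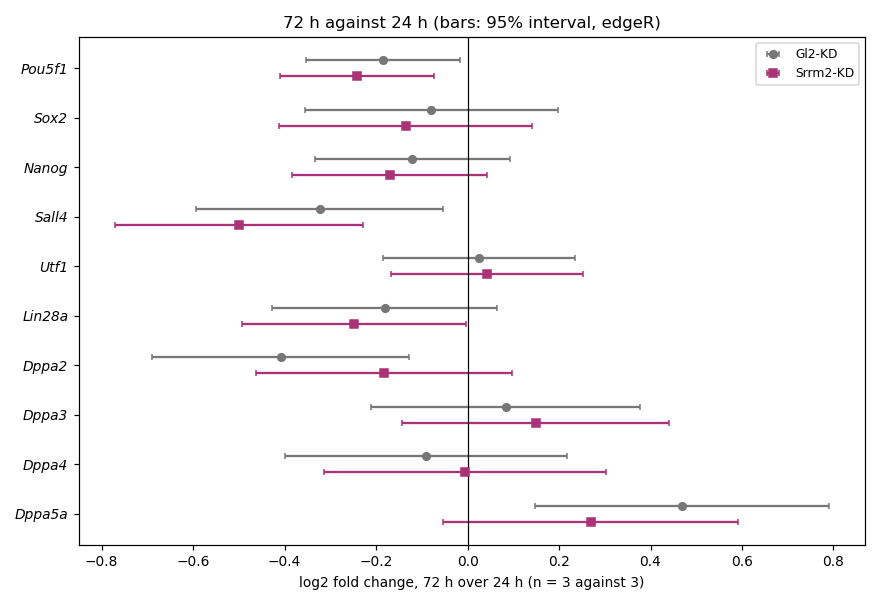
Log2 fold change of 72 h over 24 h for the 10 genes in Gl2-KD (circles) and Srrm2-KD (squares), with 95% intervals of the edgeR fit (n = 3 against 3). *Sall4* (-0.32 and -0.50) and *Pou5f1* (-0.19 and -0.24) lie below 0 with both siRNAs, *Dppa5a* (0.47 and 0.27) lies above, and no adjusted p was below 0.05.

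The partners and targets of OCT4, SOX2 and NANOG were a list of 22 genes, all tested. After knockdown 0 were called at 24 h and 0 at 72 h, and at an unadjusted p below 0.05 1 was lower at 24 h and 5 were lower at 72 h, with 0 higher at either time, beside 2.62% and 12.9% of all genes in either direction. The smallest p at 72 h were those of *Tbx3*, a T-box factor of the LIF-driven network (65.0 ± 19.3 CPM in Gl2-KD, 40.6 ± 16.3 in Srrm2-KD, SD, n = 3; log2 fold change -0.74, SE 0.21, adjusted p = 0.201), and *Tfcp2l1*, a naive-state factor downstream of LIF (331 ± 152 and 253 ± 145 CPM; -0.44, SE 0.13, adjusted p = 0.206). The list's median log2 fold change at 72 h was -0.03, beside -0.02 over all genes. Between 24 h and 72 h 1 of the 22 was called in each siRNA group, beside 1.45% of all genes in Gl2-KD and 0.551% in Srrm2-KD. *Nr0b1* (Dax1), a nuclear receptor that binds OCT4, fell in Gl2-KD from 152 ± 33.9 to 101 ± 33.9 CPM (-0.62, SE 0.10, adjusted p = 0.0214). *Nr5a2* (Lrh1), a nuclear receptor that can replace OCT4 in reprogramming, fell in Srrm2-KD from 81.1 ± 26.4 to 50.3 ± 19.9 CPM (-0.69, SE 0.12, adjusted p = 0.0467). In the other siRNA group *Nr0b1* differed by -0.51 (adjusted p = 0.0554) and *Nr5a2* by -0.48 (adjusted p = 0.0734), so a difference between the groups was not shown for either. Of 15 fits that left out a library or an experiment, *Nr0b1* was called in 8, with calls lost without any Gl2-KD library other than that of experiment 1 at 72 h and without experiment 2 or 3. *Nr5a2* was called in 1 of 15, the fit without the Gl2-KD 72 h library of experiment 3, and not with the Srrm2-KD libraries fitted alone (adjusted p = 0.25).

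Of 19 family relatives of the 10 genes 18 were tested, and 0 were called after knockdown at 24 h or 72 h. The smallest p at 72 h were those of *Sox15*, a SOX factor that can pair with OCT4 (25.5 ± 9.62 CPM in Gl2-KD, against 18.8 ± 7.57 in Srrm2-KD; -0.45, SE 0.11, adjusted p = 0.147), and *Sox4* (17.7 ± 5.74 and 25.7 ± 5.70 CPM; 0.57, SE 0.17, adjusted p = 0.226). *Sall3*, a paralogue of *Sall4*, was the called relative over time: in Gl2-KD it fell from 9.83 ± 6.84 CPM at 24 h to 2.52 ± 2.42 CPM at 72 h (-2.04, SE 0.42, adjusted p = 0.0425). With a library or an experiment left out it was called in 6 of 15 fits, and in none of those without a single Gl2-KD library.

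The pathways in which LIN28A, SALL4 and DPPA3 act had no called gene in these comparisons. Of the LIN28 and let-7 pathway 14 genes were tested; 5 had an unadjusted p below 0.05 after knockdown at 72 h, all lower, beside 12.9% of all genes in either direction, and the smallest was that of *Igf2bp3*, an RNA-binding protein whose transcript let-7 represses (109 ± 13.0 CPM in Gl2-KD, against 80.6 ± 9.09 in Srrm2-KD; -0.44, SE 0.09, adjusted p = 0.124). The list's median at 72 h was -0.20, beside -0.02 over all genes. Of the 11 NuRD subunits 1 was higher and 0 were lower at 72 h at an unadjusted p below 0.05. The median of this list at 72 h was -0.08, beside -0.02 over all genes. The histone-binding *Rbbp7* was higher in 6 of 6 pairs, as were 7.0% of all genes, from 378 ± 39.8 to 466 ± 88.4 CPM at 72 h (0.29, SE 0.10, adjusted p = 0.276). A list of 6 genes was linked to the upkeep or removal of DNA methylation, whose maintenance DPPA3 restrains. Of these, *Dnmt1*, the maintenance methyltransferase, differed by -0.30 (SE 0.11, adjusted p = 0.286) at 72 h and *Tet3*, a dioxygenase that oxidises methylcytosine, by 0.48 (SE 0.15, adjusted p = 0.238).

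*Nanog* and *Dppa3* lie 77216 bp apart on chromosome 6, between *Gdf3*, a TGF-beta family ligand of ESCs, and *Slc2a3*, a glucose transporter. *Gdf3* was at 88.8 ± 19.0 CPM in Gl2-KD at 72 h, against 102 ± 18.7 CPM in Srrm2-KD. It was higher in 6 of 6 pairs over both times, as were 7.0% of all genes, with log2 fold changes of 0.09 (SE 0.10) and 0.20 (SE 0.10, adjusted p = 0.418). *Slc2a3* was lower in 3 of 3 pairs at each time, as were 7.26% of all genes, with log2 fold changes of -0.24 (SE 0.12) and -0.19 (SE 0.12, adjusted p = 0.534). With 2 noncoding genes between *Nanog* and *Dppa3* left aside, over the 4 coding genes of this stretch the fitted differences at 72 h were thus above 0 for *Gdf3* and *Dppa3* and below 0 for *Nanog* and *Slc2a3*, and 0 of the 4 were called. *Morc1*, beyond *Gm5485* on the right of *Dppa2*, differed by 0.05 (SE 0.10) at 72 h, and *Tcf19*, 1961 bp from *Pou5f1*, by -0.27 (SE 0.14, adjusted p = 0.476).

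Reads of copies could be split between members and pseudogenes, since the counts are estimates from a transcriptome. At 90% identity or more over at least 100 bp, *Pou5f1*, *Sox2*, *Sall4*, *Utf1* and *Lin28a* had no annotated copy. *Gm14058*, a processed pseudogene 99.4% identical to *Dppa4* over 532 bp, held 3.66% of the counts of *Dppa4*, *Gm9788* 0.466% of those of *Dppa2*, and *Pigp*, 95.9% identical over 417 bp, 0.682% of those of *Dppa5a*. *Dppa3-ps* held 0.002% of the counts of *Dppa3*. The transcript of *Nanog* matched 213 other genes, each over a short stretch within bases 887 to 1415 of 2211. Together these stretches covered 21.4% of the transcript. *Nedd4*, which had the largest count of these genes, held 384% of the counts of *Nanog*, counted over the whole gene. The share of the *Nanog* counts that comes from these stretches was not estimated. *Sox2* lies within *Sox2ot* on the same strand, and *Sox2ot* was not analysed here.

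Pairs of the 10 genes also differed in how they moved together over the 12 libraries. After the mean of each experiment was removed, the highest Pearson r of log2 CPM were 0.891 for *Sall4* and *Lin28a*, 0.830 for *Pou5f1* and *Sall4*, 0.787 for *Dppa2* and *Dppa4*, and 0.762 each for *Sox2* and *Nanog* and for *Pou5f1* and *Lin28a*. The lowest was -0.818 for *Dppa2* and *Dppa5a*. These values describe 12 libraries that differ in siRNA, time and depth, and are given with no test. By the same measure, the gene most like *Pou5f1* was *Trir* (r = 0.972), that most like *Sox2* was *Ccni* (0.944), like *Nanog* *Dnm1l* (0.958), like *Sall4* *Ipo4* (0.996), like *Lin28a* *Il34* (0.971) and like *Dppa5a* *Bri3* (0.984). *Dppa2* was most like *Cdadc1* (0.983), with *Gdf3* also among its 3 nearest (0.981), *Dppa4* was most like *Taf7* (0.988) and *Dppa3* like *Ddx60* (0.957). *Utf1* had the lowest of these values (*4930533D04Rik*, 0.914), with a gene at a median of 0.0712 CPM. The genes most like *Lin28a* and *Dppa3* were also low, *Il34* at a median of 0.999 CPM and *Ddx60* at 0.871 CPM.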

How the data were processed

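PolyA+ RNA of 12 libraries was analysed. The authors pseudo-aligned 100-bp paired-end reads to GENCODE M24 with Kallisto 0.46.1 and deposited estimated counts per gene and library, not normalized for library size. Estimates were rounded. Of 42450 identifiers, 42156 matched GENCODE M21 (GRCm38), and the 294 others held 0.175% of counts. In R 4.3.3, edgeR 4.0.16 tested the 19410 genes that passed filterByExpr (minimum count 10, minimum total 15) with TMM scaling, glmQLFit (legacy=TRUE), a term per group and the experiment as a block. Calls were made at 0.05 after Benjamini-Hochberg adjustment over these genes. The authors used the RNA processing day as a covariate; it was not known per library, and experiment number stood in its place.

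Same-numbered libraries were taken as paired: after removal of group means, all 18 same-number pairs correlated across genes (0.281 to 0.747), and the 36 other pairs ranged from -0.628 to 0.231.

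The 10 genes and the lists were chosen with earlier results of these data known. Named genes were these 10, *Srrm2*, called genes of each list (at most 4) or otherwise those with the smallest p (at most 2), genome neighbours, near copies and, for each of the 10, the genes most alike over 12 libraries. Alternatives were DESeq2 1.42.0, limma 3.58.1 with voom, other scaling, filters and blocks, and leaving out libraries or experiments. The test was tested on simulated data.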

Additional observations from a re-analysis of the deposited data

How the results depend on the processing

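With edgeR, 0 of the 10 genes were called in any comparison, and most alternatives gave the same count. DESeq2 called 1 (*Sall4*) for 72 h against 24 h in Srrm2-KD and 1 (*Dppa3*) for the mean knockdown effect. Taking each experiment at each time as its own block called 1 (*Dppa2*) for the knockdown at 72 h and 2 (*Dppa2* and *Dppa3*) for the mean effect, a comparison chosen after seeing the data. Leaving out 1 library or experiment gave 0 to 1 called genes for 72 h against 24 h in Gl2-KD (*Dppa2*) and 0 to 1 for the mean effect (*Dppa3*). With no replicate block, 0 of the 10 genes were called in any comparison, and the 282 and 107 genes of the table called over time in Gl2-KD and Srrm2-KD became 0 and 0. DESeq2 called 24, 535, 1298 and 1053 genes for the knockdown at 24 h, at 72 h, and for time in Gl2-KD and Srrm2-KD. With each experiment at each time as its own block 724 genes were called for the knockdown at 72 h, and with the 72 h libraries alone 323. With the libraries of 1 siRNA alone, 158 genes were called over time in Gl2-KD and 0 in Srrm2-KD. The cause of these changes was not tested.

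Of 610 fold changes of the 10 genes under settings other than leaving out, 3 turned in direction: *Utf1* over time in Gl2-KD was -0.011 with library totals only, and *Dppa4* over time in Srrm2-KD was 0.0049 with limma-voom and 0.0046 with no replicate block. Of 900 with a library or experiment left out, 59 turned in direction, on the log2 scale and none of them called. For the knockdown effect at 24 h the ranges were -0.14 to 0.054 for *Sox2*, -0.079 to 0.12 for *Utf1*, -0.12 to 0.099 for *Sall4*, -0.20 to 0.0028 for *Lin28a*, -0.052 to 0.21 for *Dppa4* and -0.082 to 0.0073 for *Pou5f1*. For the knockdown effect at 72 h the ranges were -0.013 to 0.10 for *Utf1*. For 72 h against 24 h in Gl2-KD the ranges were -0.24 to 0.072 for *Sox2*, -0.045 to 0.089 for *Utf1* and -0.25 to 0.087 for *Dppa4*. For 72 h against 24 h in Srrm2-KD the ranges were -0.054 to 0.11 for *Utf1*, -0.13 to 0.17 for *Dppa4*, -0.255 to 0.0024 for *Sox2* and -0.025 to 0.29 for *Dppa3*. For the difference between the knockdown effects the ranges were -0.17 to 0.046 for *Lin28a*, -0.087 to 0.20 for *Dppa3*, -0.19 to 0.054 for *Sox2*, -0.076 to 0.12 for *Utf1*, -0.063 to 0.24 for *Dppa4* and -0.15 to 0.0059 for *Nanog*. For the mean knockdown effect the ranges were -0.020 to 0.11 for *Utf1*. Where a group was left with 2 libraries, the fit pooled the spread over all groups. The lowest count of the 10 genes in a library was 779.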
